A study of Mus musculus with 4 samples.

Results

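The genes described here are the V segment genes of the T cell receptor, taken as every gene whose symbol starts with Trbv (beta chain) or Trav (alpha chain). The rule found 35 Trbv and 128 Trav genes, 163 of the 28692 genes in the count tables. Their transcripts were counted as unique molecular identifiers (UMIs) in CD8 cells, defined as barcodes past the filters with at least 2 UMIs of Cd8a and Cd8b1 together. There were 538, 2351, 2228 and 1113 such cells in the 4 libraries IRF4_Pmel, Ctrl_Pmel, IRF4_TILs and Ctrl_TILs.

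The study compared tumour-infiltrating CD8 T cells made to express the transcription factor IRF4 with control cells. Mice with tumours of B16-F10, a transplantable melanoma line, received Pmel-1 CD8 T cells on day 3 after implantation, and cells were sorted from the tumours on day 14. IRF4_Pmel held transferred Pmel-1 cells transduced with IRF4 and GFP, and Ctrl_Pmel held transferred Pmel-1 cells transduced with GFP alone. IRF4_TILs and Ctrl_TILs held the endogenous CD45+ leukocytes of tumours from the IRF4 and the control arm. All samples carry the strain label C57BL/6. The age, sex and number of the animals are not given in the sources used here, nor whether the donors of the Pmel-1 cells could still rearrange receptor genes of their own. With 1 library in each group, differences between groups could not be tested, and all intervals cover counting error only.

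A T cell receptor chain is built when a V segment is joined to a J segment, with a D segment between them in the beta chain, and spliced to a constant region. Each developing T cell picks its segments largely at random, so a mixed population uses many V segments, while cells of 1 clone or with a transgenic receptor share them. Most T cells silence the second beta allele, but rearrangement of the alpha locus can go on, on both alleles and towards V segments farther from the constant gene. The receptor of Pmel-1 cells is encoded by transgenes and recognises gp100, a pigment cell protein found in melanoma, and its beta chain uses Trbv14. Its alpha chain is usually given under an older name, which corresponds to the Trav7 family.

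The Trbv genes lie on chromosome 6 and the Trav genes on chromosome 14 of GRCm38 (mm10), and all 163 matched the GENCODE annotation of that build by identifier and symbol. Annotation lists 22 Trbv genes with 13 pseudogenes and 108 Trav genes with 20 pseudogenes. The ends of the coding sequences of 9 segments show how far their transcripts can be told apart. Each line gives the last 120 coding bases, on the plus strand, within the V exon, with the codon of the last in-frame cysteine, where the junction with the next segment begins, in capitals. For the beta chain these are Trbv14 at chr6:41135497-41135616, the segment of the transgenic receptor, Trbv13-1 at chr6:41116349-41116468, the second most counted Trbv in the transferred libraries, and 3 segments frequent in endogenous cells. These are Trbv16 at chr6:41152111-41152230, the most frequent call of IRF4_TILs, Trbv19 at chr6:41178929-41179048, the most frequent call of Ctrl_TILs, and Trbv17 at chr6:41163437-41163556, the next in Ctrl_TILs.
Trbv14: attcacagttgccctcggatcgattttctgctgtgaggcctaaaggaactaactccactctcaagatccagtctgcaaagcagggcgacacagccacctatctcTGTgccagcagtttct
Trbv13-1: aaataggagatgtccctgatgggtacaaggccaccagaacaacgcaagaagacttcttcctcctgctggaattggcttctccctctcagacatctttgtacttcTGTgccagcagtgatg
Trbv16: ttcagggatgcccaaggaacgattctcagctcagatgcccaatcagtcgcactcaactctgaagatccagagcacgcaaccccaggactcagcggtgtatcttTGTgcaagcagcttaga
Trbv19: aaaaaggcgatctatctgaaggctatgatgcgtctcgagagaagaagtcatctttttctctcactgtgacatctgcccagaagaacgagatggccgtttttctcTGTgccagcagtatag
Trbv17: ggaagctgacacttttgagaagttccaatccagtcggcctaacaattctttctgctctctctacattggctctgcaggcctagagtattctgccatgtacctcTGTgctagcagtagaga

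For the alpha chain they are Trav12-2 at chr14:53616795-53616914, which had the most UMIs over both transferred libraries, Trav1 at chr14:52428757-52428876 and Trav14n-3 at chr14:53370456-53370575, which stood out in Ctrl_TILs, and Trav14-3 at chr14:53763575-53763694, a near copy of the last.
Trav12-2: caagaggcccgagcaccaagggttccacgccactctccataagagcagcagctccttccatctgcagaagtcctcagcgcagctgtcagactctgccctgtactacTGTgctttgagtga
Trav1: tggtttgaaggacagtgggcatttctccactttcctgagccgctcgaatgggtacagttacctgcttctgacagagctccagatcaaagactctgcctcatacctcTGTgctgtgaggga
Trav14n-3: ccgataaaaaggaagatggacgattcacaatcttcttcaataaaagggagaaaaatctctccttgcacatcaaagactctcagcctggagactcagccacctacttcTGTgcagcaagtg
Trav14-3: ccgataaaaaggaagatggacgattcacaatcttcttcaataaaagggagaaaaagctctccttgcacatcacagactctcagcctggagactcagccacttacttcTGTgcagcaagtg
The longest run of bases shared by the transcripts of Trbv14 and Trbv13-1 was 14, and only 4 of 35 Trbv genes shared any 50-base window with another. Trav genes were different. Of the 128, 118 shared such a window with another Trav gene and 39 had all their windows in another. Trav14n-3 shared a run of 152 bases with Trav14-3 and one of 106 with Trav14d-3-dv8. The 39 fully shared Trav genes held 4 UMIs in all CD8 cells together, or 0.136% of Trav UMIs, so a Trav gene without UMIs is not shown to be unused.

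The CD8 cells had median depths of 17721.5 UMIs in IRF4_Pmel, 21607 in Ctrl_Pmel, 12121 in IRF4_TILs and 12658 in Ctrl_TILs, with 15946739, 88942589, 41677549 and 23264794 UMIs in total. They made up 94.1% and 93.6% of the kept barcodes of IRF4_Pmel and Ctrl_Pmel and 35.0% and 19.6% of those of IRF4_TILs and Ctrl_TILs. Between 0 and 18 barcodes were shared by any pair of libraries. Markers of other cells were present in the gate. The share of CD8 cells with no UMI of Cd3d, Cd3e or Cd3g, the invariant receptor chains, was 0.186% in IRF4_Pmel, 0.0851% in Ctrl_Pmel, 2.47% in IRF4_TILs and 9.43% in Ctrl_TILs. Siglech, a plasmacytoid dendritic cell gene, was found in 0%, 0.0851%, 3.28% and 11.4% of them. The 5 myeloid markers summed to 812, 1148, 980 and 4098 CPM (UMIs of a gene per 1000000 UMIs of the same cells), none of the 5 being at 0. The haemoglobin gene Hbb-bs was found in 0.186% of IRF4_Pmel, 42.2% of Ctrl_Pmel, 0.539% of IRF4_TILs and 44.7% of Ctrl_TILs cells, that is, in both control libraries. What these markers contribute to the V segment values was not tested beyond the alternatives given at the end.

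Nearly all transferred CD8 cells showed a Trbv transcript, but only a minority of endogenous ones did. At least 1 Trbv UMI was found in 93.3% (95% interval 90.9 to 95.3) of IRF4_Pmel cells and 91.0% (89.8 to 92.1) of Ctrl_Pmel cells. The share was 36.4% (34.4 to 38.4) in IRF4_TILs and 30.8% (28.1 to 33.6) in Ctrl_TILs. Trav transcripts were sparse in every library, in 23.4% (19.9 to 27.2) of IRF4_Pmel, 31.1% (29.2 to 33.0) of Ctrl_Pmel, 22.5% (20.8 to 24.3) of IRF4_TILs and 22.5% (20 to 25) of Ctrl_TILs cells. Where detection is this sparse, a missing V segment in a cell says little.

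With each cell thinned to 2000 UMIs, Trbv was found in 49.4% of IRF4_Pmel, 38.2% of Ctrl_Pmel, 6.24% of IRF4_TILs and 5.67% of Ctrl_TILs cells, and Trav in 4.65%, 4.60%, 4.89% and 5.04%. Thinning left out 5 cells of Ctrl_Pmel and 1 of Ctrl_TILs. The order of the Trbv shares was kept, while the Trav shares of the 4 libraries fell within each other's intervals. In cells that lack a T cell receptor, B cells of IRF4_TILs and Ctrl_TILs showed Trbv in 0 of 127 (which allows up to 2.36%) and 0.394% of 508, and myeloid cells in 0.667% of 1199 and 0.694% of 1872. Myeloid cells were as deep as the CD8 cells, with medians of 12031 and 15257.5 UMIs, while the B cells had 3397 and 3625.5. NK cells showed Trbv in 2.07% and 1.64% and Trav in 4.15% and 3.82%. CD4 T cells, which carry the same kind of receptor, showed Trbv in 18.2% and 20.4% at median depths of 5005.5 and 5392.5 UMIs.

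**Figure D1:**
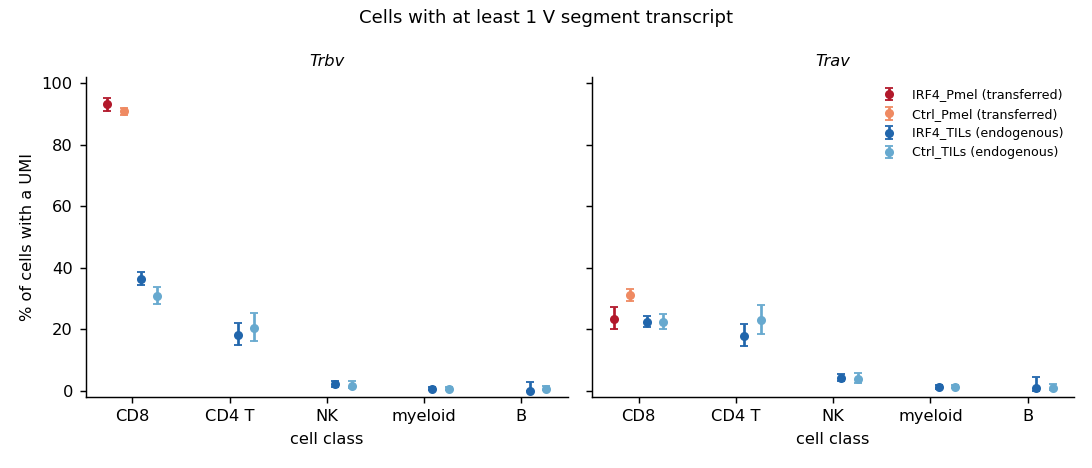
Share of cells with at least 1 Trbv (left) or Trav (right) UMI by cell class, with 95% Clopper-Pearson intervals, unthinned; points in colours are libraries, and transferred libraries are shown for CD8 cells only. Trbv reaches 93.3% and 91.0% in the transferred CD8 cells, stays near 0 in B and myeloid cells, and Trav lies between 22.5% and 31.1% in CD8 cells of all 4 libraries.

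Per transcript of the constant genes, transferred cells held about as many Trav transcripts as endogenous ones and more Trbv transcripts. There were 25.1 Trbv UMIs per 1000 UMIs of Trbc1 and Trbc2 in IRF4_Pmel, 22.8 in Ctrl_Pmel, 11.8 in IRF4_TILs and 13.4 in Ctrl_TILs. Trav UMIs per 1000 UMIs of Trac, the alpha constant gene, were 29.9 in IRF4_Pmel, 30.3 in Ctrl_Pmel, 25.8 in IRF4_TILs and 33.0 in Ctrl_TILs. The beta constant genes differed between the libraries as well. Trbc2, one of the pair of beta constant genes, stood at 11855 CPM in IRF4_Pmel and 8553 CPM in Ctrl_Pmel, against 1718 CPM in IRF4_TILs and 1058 CPM in Ctrl_TILs. Trbc1, the other, differed far less, with 809 and 793 CPM in IRF4_Pmel and Ctrl_Pmel and 846 and 499 CPM in IRF4_TILs and Ctrl_TILs. Trbc2 made up 93.6% and 91.5% of the beta constant UMIs of the transferred libraries and 67% and 68.0% of those of the endogenous ones.

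Trbv14 dominated the transferred cells. A cell was called for the Trbv gene with the most UMIs in it, and ties were left uncalled. Trbv14 was the call of 494 of 500 IRF4_Pmel cells (98.8%, 97.4 to 99.6) and 2095 of 2119 Ctrl_Pmel cells (98.9%, 98.3 to 99.3). In endogenous cells it was the call of 50 of 745 cells in IRF4_TILs (6.71%, 5.02 to 8.75) and 4 of 323 in Ctrl_TILs (1.24%, 0.338 to 3.14). The chance that 2 called cells carry the same Trbv was 97.6% in IRF4_Pmel, 97.7% in Ctrl_Pmel, 8.59% in IRF4_TILs and 8.99% in Ctrl_TILs.

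The amount of Trbv14 in a cell also set the libraries apart. Trbv14 had 4973 UMIs in IRF4_Pmel and 18471 in Ctrl_Pmel, against 76 in IRF4_TILs and 6 in Ctrl_TILs. That is 312 and 208 CPM in IRF4_Pmel and Ctrl_Pmel, against 1.82 and 0.258 CPM in IRF4_TILs and Ctrl_TILs. The ratio of IRF4_Pmel to IRF4_TILs was 171 (136 to 217), and that of Ctrl_Pmel to Ctrl_TILs was 805 (370 to 2195), with a wide interval because Ctrl_TILs held so few. Transferred cells positive for Trbv14 had a median of 8 UMIs in IRF4_Pmel (highest 49) and 6 in Ctrl_Pmel (highest 63), against 1 in IRF4_TILs (highest 6) and 1 in Ctrl_TILs (highest 1). Cells with 5 or more Trbv14 UMIs were 62.6% (58.4 to 66.7) of IRF4_Pmel and 55.6% (53.6 to 57.6) of Ctrl_Pmel cells. Only 1 of 2228 IRF4_TILs cells and 0 of 1113 Ctrl_TILs cells, which allows up to 0.270%, had as many.

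**Figure D2:**
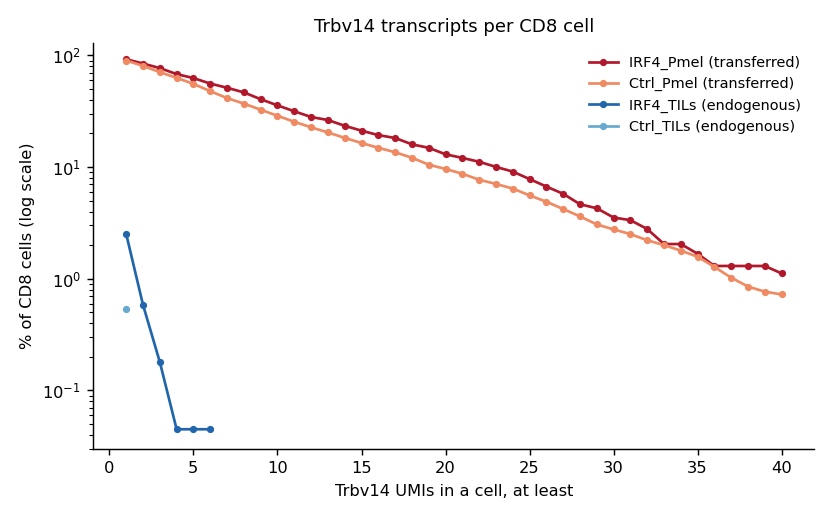
Share of CD8 cells (log scale) with at least the number of Trbv14 UMIs on the x axis, one line per library. The curves of the 2 transferred libraries run side by side up to 40 UMIs, the last value drawn, whereas the IRF4_TILs curve ends at 6 UMIs and Ctrl_TILs has a single point at 1 UMI.

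Between the transferred libraries, the Trbv14 level in CPM was higher with IRF4, at a ratio of 1.5 (1.46 to 1.55). Trbc2 had a ratio of 1.39 (1.38 to 1.39), and Trbv14 UMIs per 1000 Trbc2 UMIs were 26.3 in IRF4_Pmel and 24.3 in Ctrl_Pmel. Trbc1 and Trac had ratios of 1.02 and 0.989, while Cd8a, Cd8b1 and Cd247, genes of the coreceptor and of the signalling chain of the receptor complex, had ratios of 1.40, 1.69 and 1.54. With 1 library in each arm, a difference between arms and one between single libraries cannot be told apart, here and in all that follows.

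Transferred cells without any Trbv UMI were 36 in IRF4_Pmel and 212 in Ctrl_Pmel. They were shallower, with medians of 8294 and 7105.5 UMIs against 18745.5 and 24127 in the Trbv14 cells of IRF4_Pmel and Ctrl_Pmel. Their Trbc2 level, 4488 CPM in IRF4_Pmel and 5494 CPM in Ctrl_Pmel, lay below the 12138 and 8649 CPM of the Trbv14 cells and above the 1718 and 1058 CPM of IRF4_TILs and Ctrl_TILs cells.

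The second Trbv gene of the transferred libraries was Trbv13-1, and most cells that held it also held Trbv14, as did most CD8 cells there. It had 87 UMIs in IRF4_Pmel and 373 in Ctrl_Pmel, or 1.75 (1.40 to 2.16) and 2.02 (1.82 to 2.24) per 100 Trbv14 UMIs. Of the cells with Trbv13-1, 75 of 78 in IRF4_Pmel and 307 of 314 in Ctrl_Pmel also held Trbv14. Among all CD8 cells, Trbv14 was found in 92.4% (89.8 to 94.5) of IRF4_Pmel and 90.0% (88.7 to 91.2) of Ctrl_Pmel. Such counts would therefore be high for any gene, and depth was not matched. In endogenous cells none of 37 cells with Trbv13-1 in IRF4_TILs and none of 29 in Ctrl_TILs held Trbv14. Trbv14 was found in only 2.51% of the CD8 cells of IRF4_TILs and 0.539% of those of Ctrl_TILs, so these counts of 0 show no relation between the segments. Trbv13-1 ends 18.7 kb before Trbv14 starts, with 4 segments between them. Of these, Trbv12-2 had 0 UMIs in IRF4_Pmel and 5 in Ctrl_Pmel, Trbv13-2 had 0 and 3, and Trbv13-3 and the pseudogene Trbv12-3 had none in either. The source of the Trbv13-1 UMIs was not tested.

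Few transferred cells had another call. Leaving Trbv14 and Trbv13-1 aside, 2 called cells remained in IRF4_Pmel and 16 in Ctrl_Pmel. Their Trbc2 and Gzmk levels differed in the same direction in both libraries from those of the Trbv14 cells around them. Their Trbc2 level was 2138 CPM (1820 to 2495) in IRF4_Pmel and 2235 CPM (2053 to 2428) in Ctrl_Pmel, against 12138 and 8649 CPM in the Trbv14 cells of those libraries. Gzmk, which encodes granzyme K, reached 279 CPM (173 to 426) in IRF4_Pmel and 204 CPM (152 to 268) in Ctrl_Pmel, against 20.4 and 4.91 CPM in the Trbv14 cells. All CD8 cells together had 362 CPM of Gzmk in IRF4_TILs and 85.2 CPM in Ctrl_TILs. The state genes Gzmb, Pdcd1, Havcr2 and Tox were also higher in both libraries, as was Trac, and Tcf7 and the myeloid gene Lyz2 were lower. Pdcd1 was at 876 against 227 CPM in IRF4_Pmel, and 399 against 219 CPM in Ctrl_Pmel. Trbc1 was at 691 CPM against 817 CPM in IRF4_Pmel and 686 against 794 CPM in Ctrl_Pmel, lower in both with overlapping intervals. Ly6c2, Ikzf2, Lag3 and Mki67 went opposite ways in the transferred libraries. The state gene Ly6c2 was at 0 against 328 CPM in IRF4_Pmel, but 379 against 213 CPM in Ctrl_Pmel. Ikzf2 was at 266 against 38.2 CPM in IRF4_Pmel, but 120 against 243 CPM in Ctrl_Pmel. With 2 and 16 cells, whether these were transferred or endogenous cells was not tested.

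Endogenous CD8 cells used many Trbv segments, with a different leader in each arm. In IRF4_TILs, Trbv16 came first with 143 of 745 called cells (19.2%, 16.4 to 22.2), and Trbv12-2 (10.7%), Trbv3 (9.13%), Trbv13-2 (8.72%), Trbv14 (6.71%), Trbv20 (5.37%) and Trbv26 (4.97%) followed. In Ctrl_TILs, Trbv19 came first with 63 of 323 (19.5%, 15.3 to 24.3), followed by Trbv17 (11.1%), Trbv16 (9.60%), Trbv3 (9.29%), Trbv13-1 (8.98%), Trbv12-2 (7.43%) and Trbv13-2 (5.26%). Within either list, neighbours after the leader overlapped in their intervals. All 22 Trbv genes not listed as pseudogenes had a UMI in at least 1 library, and of the 13 pseudogenes only Trbv24 did, with 2 UMIs in IRF4_TILs and 1 in Ctrl_TILs.

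There were 23 Trbv segments called in IRF4_TILs and 21 in Ctrl_TILs, and for 4 the intervals of the arms did not overlap. The share of all genes without overlap was not computed. By summed UMIs, 15.9% of all genes had a ratio of at least 2 or at most 0.5 between these libraries. Trbv16 was the call of 19.2% of IRF4_TILs cells, against 9.60% (6.61 to 13.3) of Ctrl_TILs cells. Trbv14 was the call of 6.71% of IRF4_TILs cells, against 1.24% of Ctrl_TILs cells. Trbv19 was the call of 3.22% (2.07 to 4.76) of IRF4_TILs cells, against 19.5% of Ctrl_TILs cells. Trbv17 was the call of 1.48% (0.739 to 2.63) of IRF4_TILs cells, against 11.1% (7.93 to 15.1) of Ctrl_TILs cells. The effective number of Trbv segments, the inverse of the chance that 2 cells share one, was 11.6 in IRF4_TILs and 11.1 in Ctrl_TILs. At an equal 300 called cells the expected number of segments seen was 21.2 in IRF4_TILs and 20.9 in Ctrl_TILs, against 3.17 in IRF4_Pmel and 3.8 in Ctrl_Pmel.

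CD4 T cells of the same endogenous libraries did not share the leaders of the CD8 cells. Their most frequent call was Trbv2 in IRF4_TILs, with 18 of 79 (22.8%, 14.1 to 33.6), and Trbv15 in Ctrl_TILs, with 8 of 65 (12.3%, 5.47 to 22.8). Trbv16 was called in 5.06% (1.40 to 12.5) of the CD4 T cells of IRF4_TILs, below the interval of the CD8 cells of that library. Trbv19 was called in 6.15% (1.70 to 15.0) of the CD4 T cells of Ctrl_TILs, also below that of the CD8 cells.

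**Figure D3:**
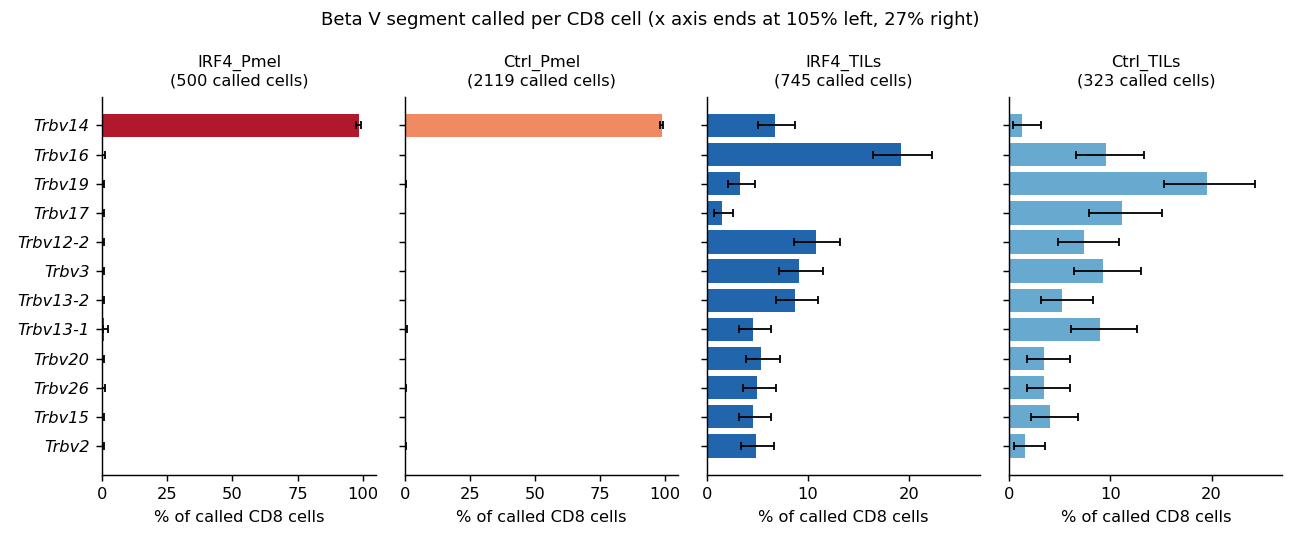
Share of called CD8 cells for 12 Trbv genes in each library, as bars with 95% Clopper-Pearson intervals; the x axes of the endogenous libraries cover a smaller range than those of the transferred ones. Trbv14 fills both transferred libraries, while Trbv16 leads IRF4_TILs at 19.2% and Trbv19 leads Ctrl_TILs at 19.5%.

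The Trbv14 cells of the endogenous IRF4_TILs library differed from transferred cells in their receptor counts. They held a mean of 1.36 Trbv14 UMIs per positive cell, beside 1.44 UMIs for Trbv16 and 1.31 for Trbv19 in the same library, against 10.0 in IRF4_Pmel. Their Trbc2 level was 3033 CPM (2928 to 3141), above the 1744 CPM of cells called for another segment and below the 12138 CPM of Trbv14 cells in IRF4_Pmel. Gzmk stood at 610 CPM in them and 374 CPM in cells with another call, against 20.4 CPM in IRF4_Pmel. None of the 56 cells with a Trbv14 UMI in IRF4_TILs and none of the 6 in Ctrl_TILs had a barcode that also occurs in a transferred library. A transferred and an endogenous library shared only 0 to 5 barcodes in any pair. This count could thus hardly differ from 0, and it does not bear on the origin of the cells. Whether single Trbv14 cells of the endogenous libraries were transferred cells was not tested.

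No Trav segment dominated the transferred cells. Trav12-2 was singled out for having the most UMIs over both transferred libraries, 16 in IRF4_Pmel and 136 in Ctrl_Pmel, and was the call of 5.17% (1.92 to 10.9) of 116 called cells in IRF4_Pmel and 8.59% (6.50 to 11.1) of 617 in Ctrl_Pmel. In endogenous cells it was the call of 3.42% (1.97 to 5.49) of 468 cells in IRF4_TILs and 3.07% (1.24 to 6.22) of 228 in Ctrl_TILs. The most frequent call of IRF4_Pmel was Trav6-7-dv9 (8.62%, 4.21 to 15.3), followed by Trav16 (7.76%), Trav21-dv12 (6.90%) and Trav3-3 (6.03%), with Trav9-4 as frequent as Trav12-2. In Ctrl_Pmel, Trav3-3 (7.13%), Trav21-dv12 (6.16%) and Trav6-7-dv9 (6.00%) followed Trav12-2, all within overlapping intervals. Trav6-7-dv9 also led IRF4_TILs (8.97%, 6.54 to 11.9), before Trav13-2 (5.98%) and Trav3-3 (5.34%). Trav14n-3 led Ctrl_TILs (10.5%, 6.86 to 15.3), before Trav1 and Trav3-3 (7.46% each) and Trav6-7-dv9 and Trav16 (5.26% each).

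Adding up the calls of its 10 genes, the Trav12 family was called in 8.62% of IRF4_Pmel, 13.5% of Ctrl_Pmel, 8.12% of IRF4_TILs and 9.65% of Ctrl_TILs cells. The 13 genes of the Trav7 family held 12 of 258 Trav UMIs in IRF4_Pmel (4.65%, 2.43 to 7.98) and 110 of 1477 in Ctrl_Pmel (7.45%, 6.16 to 8.91). They held 89 of 821 in IRF4_TILs (10.8%, 8.80 to 13.2) and 31 of 395 in Ctrl_TILs (7.85%, 5.39 to 11), so the family was no more frequent in transferred than in endogenous cells. Of those 13 genes, 3 had all their windows in another Trav gene. The effective number of alpha segments, calls of pseudogenes included, was 30.3 in IRF4_Pmel, 30.1 in Ctrl_Pmel, 34.1 in IRF4_TILs and 27.1 in Ctrl_TILs. At an equal 100 called cells, 38.4, 41.0, 42.4 and 40.2 segments were expected in IRF4_Pmel, Ctrl_Pmel, IRF4_TILs and Ctrl_TILs.

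Cells with more than 1 alpha segment were most frequent in Ctrl_Pmel. Among cells with a Trav UMI, 18.3% (11.9 to 26.1) in IRF4_Pmel, 26.3% (23.1 to 29.7) in Ctrl_Pmel, 12.6% in IRF4_TILs and 11.2% in Ctrl_TILs showed at least 2 Trav genes, and the highest number in a cell was 3, 7, 3 and 3. Counting families in place of genes gave 18.3%, 25.2%, 12.6% and 10.4%. Without the 6% of barcodes with the most UMIs the shares of cells with at least 2 genes were 16.4%, 20.8%, 11.7% and 7.85%. Ctrl_Pmel was also the deepest library, and the part of depth and of barcodes that hold more than 1 cell was not tested further.

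Transferred cells took more of their alpha calls from segments near the constant gene. The 20 Trav genes nearest to Trac end within 544 kb of it, and the 20 farthest lie at least 1396 kb away. The nearest 20 made up 50.9% (41.4 to 60.3) of calls in IRF4_Pmel and 35.3% (31.6 to 39.2) in Ctrl_Pmel, against 25% (21.1 to 29.2) in IRF4_TILs and 18.9% (14 to 24.6) in Ctrl_TILs. The farthest 20 made up 4.31%, 5.19%, 10.0% and 15.4% in the same libraries. Of the 20 Trav pseudogenes, 6 had UMIs, and Trav20, Trav22, Trav8-2 and Trav13-3 are among the nearest segments. In the same order of libraries, Trav20 was the call of 3.45%, 0.648%, 0% and 0%, and Trav22 of 1.72%, 0.810%, 0.855% and 0%. Trav8-2 was the call of 0.862%, 3.08%, 0.214% and 0.439%, and Trav13-3 of 0%, 0.324%, 0.214% and 0%. Calls thus count transcripts, and not each stands for a chain in use. Trav21-dv12, among the nearest to Trac, was the call of 6.90% of IRF4_Pmel and 6.16% of Ctrl_Pmel cells, against 1.07% of IRF4_TILs and 0.439% of Ctrl_TILs cells. Trav1, the farthest, had 0 UMIs in IRF4_Pmel and 12 in Ctrl_Pmel, against 0 in IRF4_TILs and 29 in Ctrl_TILs, so it was frequent in 1 of the endogenous libraries and unseen in the other. The grouping by distance was chosen after the calls were seen.

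**Figure D4:**
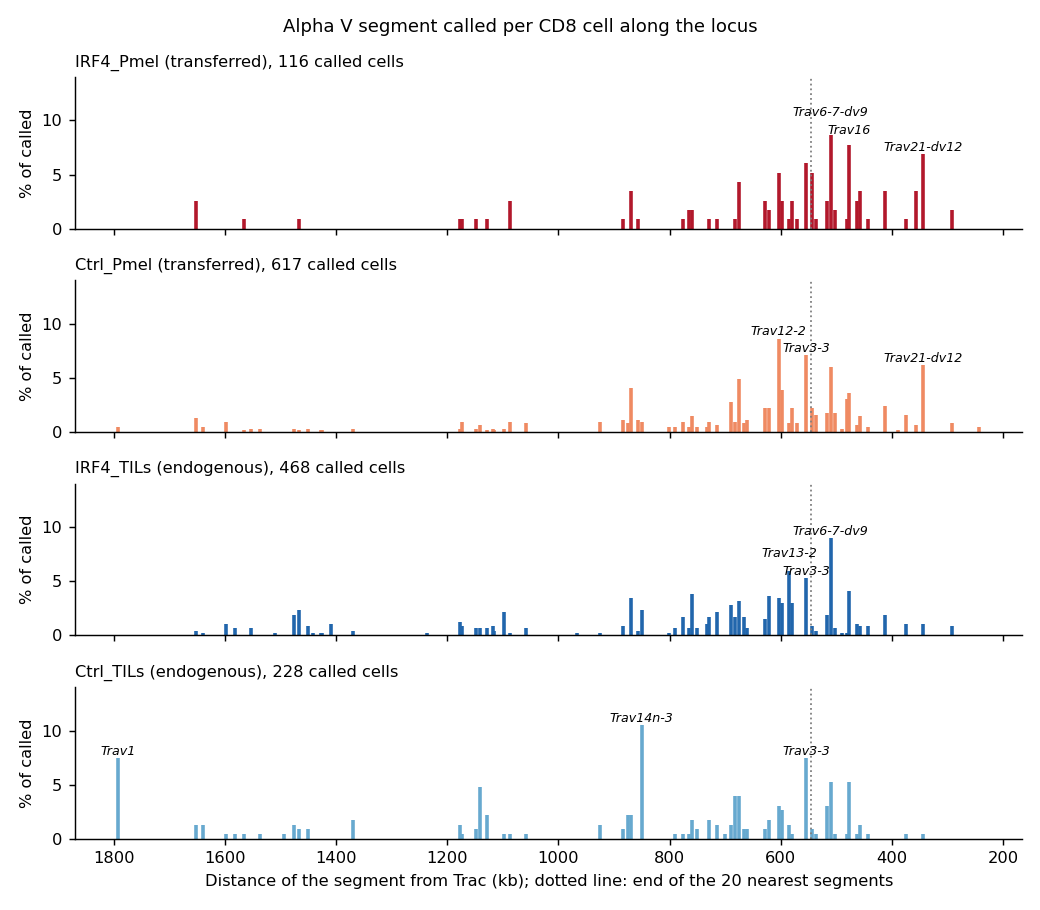
Share of called CD8 cells for each Trav gene against its distance from the alpha constant gene Trac in kb, 1 panel per library, with the 3 most frequent segments named; the dotted line marks the end of the 20 nearest segments. Calls of the transferred libraries are denser on the right, near Trac (50.9% and 35.3% in the nearest 20), and Trav1 and Trav14n-3 stand out in Ctrl_TILs.

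In the endogenous libraries some Trbv groups differed in their constant gene. Each rearranged beta chain is spliced to either Trbc1 or Trbc2, near copies of each other whose reads the counting could split. Among Trbv17 cells of Ctrl_TILs, 30 of 36 (83.3%, 67.2 to 93.6) had more Trbc1 than Trbc2 UMIs, against 71 of 287 (24.7%, 19.9 to 30.2) cells with another call. Among Trbv19 cells of Ctrl_TILs, 36 of 63 (57.1%, 44.0 to 69.5) had no Trbc1 UMI at all, against 68 of 260 (26.2%, 20.9 to 31.9) cells with another call. The Trbv19 cells were also the deeper ones, with a median of 23728 UMIs against 14240, and depth was not matched here. In IRF4_TILs, 20 of 34 Trbv13-1 cells (58.8%, 40.7 to 75.4) had more Trbc1 than Trbc2, against 202 of 711 (28.4%, 25.1 to 31.9) cells with another call. In Ctrl_TILs this was so for 9 of 29 Trbv13-1 cells and for 92 of 294 (31.3%) cells with another call, so the lean to Trbc1 was not seen there. Of the 11 Trbv17 cells of IRF4_TILs, 3 (27.3%, 6.02 to 61) had more Trbc1 than Trbc2, and this interval lies below that of the Trbv17 cells of Ctrl_TILs. Of the 24 Trbv19 cells of IRF4_TILs, 9 (37.5%, 18.8 to 59.4) had no Trbc1 UMI, against 212 of 721 (29.4%, 26.1 to 32.9) cells with another call, with overlapping intervals.

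**Figure D5:**
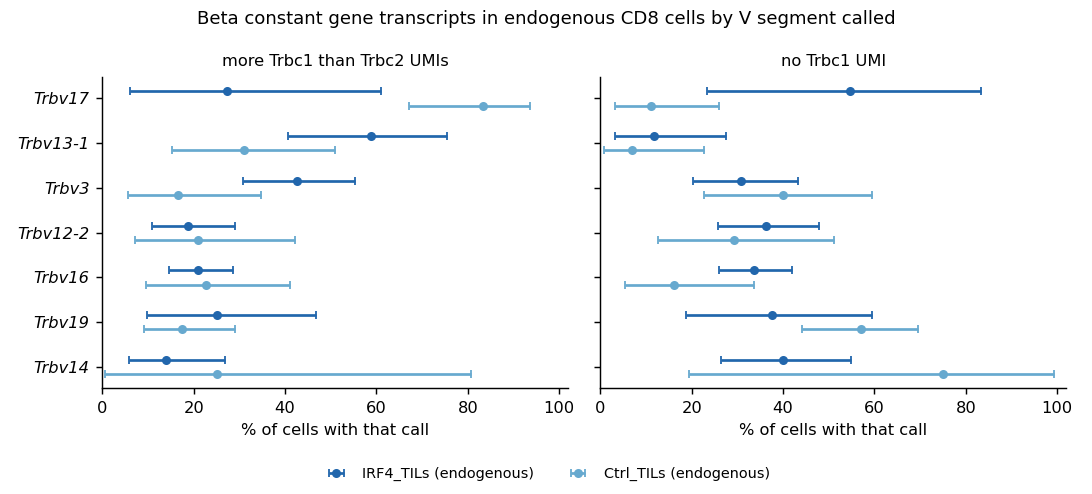
Share of endogenous CD8 cells with more Trbc1 than Trbc2 UMIs (left) and with no Trbc1 UMI (right), by Trbv call, with 95% Clopper-Pearson intervals, IRF4_TILs above Ctrl_TILs in each row. Trbv17 cells of Ctrl_TILs stand at 83.3% on the left, and Trbv19 cells of Ctrl_TILs at 57.1% on the right.

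Pairs of a Trbv and a Trav call could be read in 107 IRF4_Pmel, 581 Ctrl_Pmel, 174 IRF4_TILs and 75 Ctrl_TILs cells. Trbv14 with a Trav12 gene, the family of Trav12-2, was found in 1 IRF4_TILs cell, where the product of the single shares gives 0.828 cells, and in 0 Ctrl_TILs cells, which allows up to 4%. The most frequent pairs of endogenous cells involved other segments. In IRF4_TILs these were Trbv12-2 with Trav4-3, in 9 cells where the product of shares gives 1.61, and Trbv16 with Trav13-2, in 8 cells where it gives 3.49. In Ctrl_TILs these were Trbv19 with Trav14n-3, in 8 of 75 cells where it gives 3.33, and Trbv19 with Trav1, in 6 where it gives 2.67. Of the 129 different pairs in IRF4_TILs, 103 were seen once, as were 45 of 54 in Ctrl_TILs. The junction itself was not measured, so whether cells that share a pair share a clone was not tested.

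The alpha segments paired with Trbv19 in Ctrl_TILs went with the same constant gene. Trav1 had 29 UMIs in 23 Ctrl_TILs cells and 0 UMIs in IRF4_TILs, at least 17.3-fold lower in IRF4_TILs against a floor of 3 UMIs for that library. Of the 23 Trav1 cells, 21 (91.3%, 72.0 to 98.9) had no Trbc1 UMI, as had 23 of 31 Trav14n-3 cells (74.2%, 55.4 to 88.1), against 65 of 201 (32.3%, 25.9 to 39.3) cells with only other Trav genes. The Trav1 and Trav14n-3 cells were deeper, with medians of 32644 and 25810 UMIs against 14757. Trav1 and Trav14n-3 occurred together in 5 cells of Ctrl_TILs, none of which was called for Trbv19. Of the 10 Trav1 cells with any Trbv UMI, 8 were Trbv19 cells. All 9 cells called for Trbv19 with a Trav14n-3 UMI had no Trbc1 UMI. Trav14d-3-dv8, which shares long runs with Trav14n-3, was also more frequent in Ctrl_TILs, with 3 called cells in IRF4_TILs (0.641%) against 11 in Ctrl_TILs (4.82%), and reads of these copies cannot always be told apart.

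Cells grouped by Trbv call differed in their state genes within Ctrl_TILs. Trbv17 cells of Ctrl_TILs had little of the cycling gene Mki67, 38.1 CPM (22.9 to 59.5) against 283 CPM (271 to 296) in cells with another call. They had 16 CPM of Havcr2, which encodes the checkpoint protein TIM-3, against 128 CPM, and 1016 CPM of Ly6c2, a surface protein gene of memory-type CD8 cells, against 403 CPM. This was not particular to Trbv17. The 24 Trbv12-2 cells of Ctrl_TILs had 48.3 against 277 CPM of Mki67, 21.1 against 125 CPM of Havcr2 and 1028 against 417 CPM of Ly6c2. Trbv12-2 cells were also shallower, with a median of 9643.5 UMIs against 16978. Trbv19 cells of Ctrl_TILs had 8.81 CPM (5.13 to 14.1) of Tcf7, the gene of the stem-like T cell factor TCF1, against 63.9 CPM (57.6 to 70.8). Their Gzmk level was 162 CPM against 86.5 CPM, and Mki67 was 293 CPM against 259 CPM. Lyz2, a myeloid gene, was at 3446 CPM in Trbv17 cells and 2604 CPM in Trbv19 cells of Ctrl_TILs, against 2639 and 2720 CPM in the cells with other calls. Depth differed as well, and was not matched. Trbv17 cells of Ctrl_TILs had a median of 9050 UMIs against 18172 in cells with another call, and Trbv19 cells 23728 against 14240.

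In IRF4_TILs these differences were partly absent. The 80 Trbv12-2 cells there had 75.1 CPM of Havcr2 against 108 CPM and 320 CPM of Ly6c2 against 272 CPM, on the same side as in Ctrl_TILs. Their Mki67 level was 446 CPM against 460 CPM, with overlapping intervals. The 11 Trbv17 cells of IRF4_TILs had 142 CPM (86.5 to 219) of Havcr2, beside 104.9 CPM over all called cells, and 227 CPM (155 to 320.0) of Mki67, beside 459 CPM. Their Ly6c2 level was 673 CPM (544 to 823), beside 276 CPM. These 11 cells also had 3336 CPM (3042 to 3652) of Lyz2, beside 686 CPM over all called cells. They were shallower, with a median of 7243 UMIs beside 17447. What transcripts of myeloid cells add to their Havcr2 and Ly6c2 levels was not tested. The 24 Trbv19 cells there had 54.5 CPM (38.8 to 74.6) of Tcf7, against 39.1 CPM in cells with another call, and 208 CPM of Gzmk, against 396 CPM. Mki67 and Ly6c2 of Trbv17 cells thus lay on the same side as in Ctrl_TILs, Havcr2 of Trbv17 cells and Tcf7 of Trbv19 cells were not lower by these intervals, and Gzmk of Trbv19 cells was lower, where in Ctrl_TILs it was higher.

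In Trbv16 cells, Gzmb, Havcr2, Ly6c2 and Tcf7 differed from the other called cells in the same direction in both arms. Gzmb, the gene of granzyme B, stood at 1290 CPM in Trbv16 cells and 1112 CPM in cells with another call in IRF4_TILs, and at 1373 and 790 CPM in Ctrl_TILs. Ly6c2 stood at 199.7 CPM in Trbv16 cells and 295 CPM in the others in IRF4_TILs, and at 245 and 473 CPM in Ctrl_TILs. Tcf7 was at 20.6 CPM in Trbv16 cells and 44.6 CPM in the others in IRF4_TILs, and at 29.3 and 53.4 CPM in Ctrl_TILs. Havcr2 stood at 125 CPM in Trbv16 cells and 99.7 CPM in the others in IRF4_TILs, and at 238 and 103 CPM in Ctrl_TILs. The state genes Lag3, Tox and Pdcd1 were also higher in Trbv16 cells in both arms, with overlapping intervals in IRF4_TILs. Gzmk, Mki67, Ikzf2 and Lyz2 went opposite ways in the arms. Gzmk stood at 418 CPM in Trbv16 cells and 381 CPM in the others in IRF4_TILs, and at 93.7 and 107 CPM in Ctrl_TILs. Mki67 stood at 412 and 471 CPM in IRF4_TILs, and at 302 and 262 CPM in Ctrl_TILs. Lyz2 stood at 736 and 673 CPM in IRF4_TILs, and at 1626 and 2854 CPM in Ctrl_TILs. Trbv16 cells were deeper, with medians of 19125 against 17022 UMIs in IRF4_TILs and 29502 against 15376.5 UMIs in Ctrl_TILs, and depth was not matched. All these levels are sums over cells of single libraries, and a few cells can carry them.

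Gene by gene, V segments were compared as sums over CD8 cells, for genes with at least 20 UMIs over both libraries, and called past the fold at a ratio of at least 2 or at most 0.5. Between IRF4_Pmel and Ctrl_Pmel, 3 Trbv and 23 Trav genes could be read, and 0 and 5 were past the fold, against 7.75% of all 12935 genes (2.29% higher and 5.46% lower). Those 5 were Trav4-3, Trav9-4 and Trav19 (higher) and Trav13n-3 and Trav7-5 (lower), and with at least 50 UMIs none was left. Trav9-4 had 16 UMIs in 6 cells of IRF4_Pmel and 32 UMIs in 21 cells of Ctrl_Pmel, a ratio of 2.79 (1.43 to 5.23), while the intervals of Trav4-3, Trav19 and Trav13n-3 held 1. Between IRF4_TILs and Ctrl_TILs, 10 of 16 Trbv and 9 of 18 Trav genes were past the fold, against 15.9% of all genes (3.34% higher and 12.6% lower). Of the Trbv genes 8 were higher and 2, Trbv17 and Trbv19, lower. Their ratios were 7.07 (3.10 to 19.9) for Trbv14, 2.63 (1.94 to 3.62) for Trbv16, 0.253 (0.167 to 0.375) for Trbv19 and 0.209 (0.120 to 0.351) for Trbv17. The median log2 ratio was 0.96 over the 16 Trbv genes and 0.11 over the 18 Trav genes, beside -0.04 over all genes.

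Of the Trav genes between IRF4_TILs and Ctrl_TILs, 6 were higher, with Trav13-2 (55 UMIs in IRF4_TILs and 3 in Ctrl_TILs) and Trav6-7-dv9 (91 and 17) at ratios of 10.2 (3.32 to 51.1) and 2.99 (1.77 to 5.35). Lower were Trav1, Trav14n-3 (0.235, 0.122 to 0.432) and Trav14d-3-dv8. Between transferred and endogenous cells every readable Trbv gene was past the fold. In IRF4_Pmel over IRF4_TILs it was 15 of 15 Trbv and 6 of 17 Trav genes, against 12.0% of all genes (3.59% higher and 8.41% lower). In Ctrl_Pmel over Ctrl_TILs it was 11 of 11 Trbv and 14 of 29 Trav genes, against 21.0% (5.04% higher and 16.0% lower). In both, Trbv14 and Trbv13-1 were the higher Trbv genes and all others lower. Trbv13-1 had ratios of 4.13 (2.92 to 5.90) and 2.50 (1.80 to 3.57). The 20 UMI minimum was met by most of these Trbv genes through the endogenous library alone, so these counts describe the readable genes and not all 35. The 2 comparisons within an origin and the 2 between origins share libraries and are not independent.

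The other genes of the receptor complex show what the V segments are read against. Cd3d, Cd3e and Cd3g, the signalling chains, had ratios of 1.03, 1.09 and 1.04 in IRF4_Pmel over Ctrl_Pmel, and of 1.39, 1.43 and 1.39 in IRF4_TILs over Ctrl_TILs. Cd247, the zeta chain, had ratios of 1.54 (1.44 to 1.63) and 1.82 (1.72 to 1.91). In IRF4_TILs over Ctrl_TILs, Trac (1.48), Trbc1 (1.70) and Trbc2 (1.62) were raised in like measure, in the library with the smaller share of cells lacking Cd3 transcripts. Trdc, the delta constant gene, stood at 45.2 CPM in IRF4_Pmel and 48.3 CPM in Ctrl_Pmel, against 9.62 CPM in IRF4_TILs and 6.10 CPM in Ctrl_TILs. The 6 Trdv genes, the delta V segments, followed with 55, 183, 22 and 1 UMIs. Gamma constant genes went the other way as a sum. The 4 Tcrg-C genes summed to 4.01 and 5.81 CPM in IRF4_Pmel and Ctrl_Pmel, against 27.3 and 27.8 CPM in IRF4_TILs and Ctrl_TILs. Tcrg-C2 carried the sum in IRF4_TILs and Ctrl_TILs, with 895 and 581 UMIs. Tcrg-C4 led in IRF4_Pmel and Ctrl_Pmel, with 45 and 368 UMIs, so the sum does not give the direction of each gene. Trgv2 had 7 and 39 UMIs in the transferred libraries and 216 and 116 in the endogenous ones.

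Rag1 and Rag2, the genes of the recombinase, were at or near 0. Rag2 had no UMI in any library and Rag1 had 1 UMI in Ctrl_TILs only. Dntt, which adds bases at junctions, had 0 UMIs in IRF4_Pmel and 1 in Ctrl_Pmel, but 82 in IRF4_TILs (1.97 CPM) and 241 in Ctrl_TILs (10.4 CPM). Of the cells with Dntt, 31 of 33 in IRF4_TILs and 73 of 77 in Ctrl_TILs also held Siglech. The 84 D and J segment genes, 14 Trbj and 60 Traj genes among them, had 0 UMIs in all CD8 cells, so V segments were the only segments of rearranged chains that could be read from these tables.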

How the data were processed

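Droplet 3′ single-cell RNA libraries were analysed, 1 per group. The authors deposited raw UMI counts, in whole numbers, for each gene in each barcode. The submitters' processing notes name Cell Ranger 3.0.2, STAR 2.6 and the build mm10. Which annotation was counted is not given here. The labels' protocols speak of sorted cells and also of nuclei in the suspension, and barcodes were treated as cells.

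Barcodes were kept with at least 1000 UMIs, 500 genes and at most 10% mitochondrial UMIs (572, 2513, 6371 and 5676 in IRF4_Pmel, Ctrl_Pmel, IRF4_TILs and Ctrl_TILs). CD8 cells had at least 2 UMIs of Cd8a and Cd8b1. Outside them, B cells had at least 3 UMIs of Cd79a, Cd79b and Ms4a1, myeloid cells at least 10 of Lyz2, NK cells at least 1 of Ncr1, and CD4 T cells Cd4 with Cd3 genes. No doublet caller was run, and alternatives leave out the deepest barcodes and cells with other lineages' genes. Shares have exact Clopper-Pearson intervals, levels exact Poisson and ratios exact conditional binomial intervals, at 95%. Fold calls added 0.5 UMI to each sum. The formulas were tested on simulated data. No test across libraries was possible.

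The genes, lists and groupings were chosen with earlier results of these data known. Named segments are Trbv14, the Trav gene with the most UMIs in the transferred libraries with its family, every segment called in at least 5% of called cells of a library, the 8 most frequent Trbv and Trav genes of the endogenous libraries, and fixed lists of receptor and state genes. Trav7, Trav4-3, Trav14-3 and genes past the fold outside that rule were named after their values were seen. Python 3.11.15, numpy 2.4.6, scipy 1.17.1, pandas 2.3.3 and matplotlib 3.10.9 were used, with sequences and positions from GENCODE vM21.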

Additional observations from a re-analysis of the deposited data

Results flagged for a closer look

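Genes were listed when their ratio between arms passed 1.5-fold in opposite directions in transferred and endogenous CD8 cells. The difference between the ratios was not tested, since each group is 1 library.

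Trav7-5 had 0 UMIs in IRF4_Pmel and 39 UMIs in 32 cells of Ctrl_Pmel. With 0.5 UMI added the ratio is 0.0706, which depends on that addition. Against a floor of 3 UMIs it was at least 2.33-fold lower in IRF4_Pmel. In endogenous cells it had 27 UMIs in IRF4_TILs and 4 in Ctrl_TILs, a ratio of 3.41 on the same scale and 3.77 (1.31 to 14.8) without the addition. Of its windows of 50 bases, 11.1% occur in another Trav gene.

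Ptcra, the gene of the pre-T alpha chain, had a ratio of 11.4 in transferred cells, from 19 UMIs in IRF4_Pmel and 9 in Ctrl_Pmel. A single cell held 18 of the 19. Its ratio in endogenous cells was 0.286, from 10 UMIs in IRF4_TILs and 20 in Ctrl_TILs. Of the cells with Ptcra, 6 of 9 in IRF4_TILs and 13 of 14 in Ctrl_TILs held Siglech, against 0 of 2 in IRF4_Pmel and 1 of 7 in Ctrl_Pmel.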

How the results depend on the processing

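Of 252 values recomputed over 30 results, 200 moved by less than their counting interval and 52 by more (for a count, by over 1.5 times). No paired analysis was possible because each group is 1 library.

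Detection moved most with depth. At 2000 UMIs per cell Trbv was found in 49.4% of IRF4_Pmel, 38.2% of Ctrl_Pmel, 6.24% of IRF4_TILs and 5.67% of Ctrl_TILs cells and Trav in 4.65%, 4.60%, 4.89% and 5.04%. At 5000 UMIs Trbv was found in 71.6%, 66.0%, 16.2% and 14.3% and Trav in 11%, 9.07%, 10.9% and 9.93%. With 5 UMIs of the Cd8 genes, Trbv stood at 92.3% in Ctrl_Pmel. Over all barcodes Trbv stood at 90.4% in IRF4_Pmel and 88.5% in Ctrl_Pmel, and Trav at 29.0% in Ctrl_Pmel. Without the 6% of barcodes with the most UMIs, Trav stood at 27.9% in Ctrl_Pmel and 20.6% in IRF4_TILs, and Trbv at 32.6% in IRF4_TILs. Without cells with Lyz2, B cell or Cd4 UMIs, Trbv stood at 89.7% and Trav at 26.7% in Ctrl_Pmel. With a Cd3 UMI required, an alternative chosen after seeing the data, Trbv stood at 34.0% in Ctrl_TILs.

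With calls from at least 2 UMIs, Trbv14 made up 99.6% of IRF4_Pmel, 99.6% of Ctrl_Pmel and 0% of Ctrl_TILs calls, and Trav12-2 11.1% of Ctrl_Pmel calls. The chance that cells share a Trbv was 99.3% in Ctrl_Pmel and 10.4% in IRF4_TILs, that of sharing a Trav 4.54% in IRF4_TILs, and the pair of Trbv14 with Trav12 was at 0% in IRF4_TILs. As a share of summed UMIs, Trbv14 was 97.4% in Ctrl_Pmel. With families joined, the chance of sharing a Trav was 7.44% in IRF4_Pmel, 7.70% in Ctrl_Pmel, 9.39% in IRF4_TILs and 9.15% in Ctrl_TILs, and that of sharing a Trbv 11% in IRF4_TILs and 11.2% in Ctrl_TILs. The Trav12 family, that of Trav12-2, made up 13.9% of Ctrl_Pmel, 8.10% of IRF4_TILs and 10.0% of Ctrl_TILs calls.

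Counts of V genes past the fold depended on the minimum. With at least 50 UMIs they were 0 in IRF4_Pmel over Ctrl_Pmel (5 at 20 UMIs), 13 in IRF4_Pmel over IRF4_TILs (21) and 9 in Ctrl_Pmel over Ctrl_TILs (25). With at least 1 UMI they were 31 in IRF4_Pmel over Ctrl_Pmel, 52 in IRF4_TILs over Ctrl_TILs (19 at 20 UMIs), 61 in IRF4_Pmel over IRF4_TILs and 59 in Ctrl_Pmel over Ctrl_TILs. With a ratio of 1.5 there were 10 in IRF4_Pmel over Ctrl_Pmel. The cause of these shifts was not tested beyond the construction of each alternative.

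Sparse detection limits what can be said of single cells, since most endogenous CD8 cells showed no Trbv UMI. Trbc2 was found in 97.3% of IRF4_TILs and 90.4% of Ctrl_TILs cells, the same cells at the same depth, and the cause of this gap was not tested. Only the segment, not the junction, was counted.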
